A study of Homo sapiens with 24 samples.

Results

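The zinc finger mRNAs described here are those of the 235 protein-coding genes on human chromosome 19 whose symbol is ZNF followed by digits. The rule that defines them uses symbol and position alone and no measured value, although the group was picked for description with earlier results of these data known. They are part of 19086 protein-coding genes in the count table, which lists 20345 genes. The other 224 ZNF genes, on other chromosomes, were the comparison group. The labels give A2058, an established human melanoma cell line, for every library, while one legend of the study names A375, another melanoma line, beside translation efficiencies. The identity of the line was not tested here. Cells received a control siRNA (siCTRL) or an siRNA against LSM14A (siLSM14A), an RNA-binding protein of cytoplasmic mRNP granules, and then either no drug (NT) or hydroxyurea (HU, which depletes nucleotides for DNA replication) at 10 mM over 2 h. Each of these 4 conditions had 3 numbered replicates of total RNA and 3 of polysomal RNA, the latter from the heavy fractions of a sucrose gradient. They were sequenced after polyA selection, in 24 libraries of 24789280 to 44897501 counts. The labels do not tie total and polysomal libraries of the same number to 1 culture. The siRNA is transient, the line is 1 established line, and the labels do not say whether replicates came from separate cultures, so p-values measure only the spread between these samples.

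C2H2 zinc finger proteins bind DNA through tandem fingers, each a short fold that holds a zinc ion between a pair of cysteines and a pair of histidines. Many carry a KRAB domain at the N terminus, which recruits the corepressor TRIM28 and, through it, enzymes that place repressive histone marks. These proteins are best known for silencing transposable elements. Their genes multiplied by tandem duplication, and chromosome 19 holds most of the large human clusters. The polysomal-to-total ratio of an mRNA describes which share of it sediments with many ribosomes. Because the libraries were scaled to each other, a log2 ratio of 0 means the ratio of the typical mRNA, and a change in the amount of polysomal RNA per cell cannot be seen.

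The finger units below show how differently the same fold is written in these genes. The first 3 come from the members with the smallest p among those lower in polysomal than in total RNA of untreated siCTRL cells, and the last 3 from those with the smallest p among those higher that hold such a unit. Each is the first finger of its pattern in the coding sequence, 78 bases from the codon of the first cysteine, read 5′ to 3′ on the coding strand of GRCh37 (hg19). Capitals mark the 5 codons of the linker that joins a finger to the next. The intervals are chr19:37210473-37210550 (+) for ZNF567, chr19:58370840-58370917 (+) for ZNF587, chr19:44660869-44660946 (+) for ZNF234, chr19:56600262-56600339 (-) for ZNF787, chr19:56671127-56671204 (+) for ZNF444 and chr19:42584247-42584324 (+) for ZNF574, all in coding exons.
ZNF567: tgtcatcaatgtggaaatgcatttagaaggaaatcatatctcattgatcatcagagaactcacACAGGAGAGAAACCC
ZNF587: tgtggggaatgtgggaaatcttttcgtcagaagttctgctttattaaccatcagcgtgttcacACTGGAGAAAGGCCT
ZNF234: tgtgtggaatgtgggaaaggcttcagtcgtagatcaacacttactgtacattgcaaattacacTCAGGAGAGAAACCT
ZNF787: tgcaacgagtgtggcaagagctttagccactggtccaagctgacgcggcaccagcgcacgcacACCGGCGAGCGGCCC
ZNF444: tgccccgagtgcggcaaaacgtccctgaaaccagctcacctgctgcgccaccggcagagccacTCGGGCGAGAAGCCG
ZNF574: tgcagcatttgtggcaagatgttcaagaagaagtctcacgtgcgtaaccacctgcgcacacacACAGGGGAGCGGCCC
The units of ZNF567, ZNF587 and ZNF234 held 38.5%, 44.9% and 42.3% G and C, and those of ZNF787, ZNF444 and ZNF574 held 66.7%, 67.9% and 56.4%. At the third positions of all codons of the coding sequence, the shares of G or C were 36.9%, 41.6% and 41.7% in the first 3 genes and 93.0%, 87.5% and 67.6% in the last 3.

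The 235 members lay in 16 groups along the chromosome, counting a new group wherever a member started more than 1 Mb after the one before. A sequence pattern of the KRAB box was found in the translated canonical transcript of 192 members and was not found in 43. The median member had 12 C2H2 fingers by a sequence pattern, which can miss degenerate fingers and found none in ZNF274, a coding sequence of 1728 bases and exons of 42.4% GC, against 49.1% GC over all 19086 genes. Members with the KRAB motif had a median GC content of 42.1%, with a range of 33.2% to 57.3%. Members without it spread from 35.9% to 70.9%, with a median of 57.8%. ZNF genes elsewhere had a median of 9 fingers and 45.5% GC, and 87 of the 224 held the motif.

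Most members were expressed at low levels. In total RNA the median member reached 0.632 CPM (counts scaled to a common library size) per kb of transcript as a mean over the 12 libraries, and 86 of the 235 (36.6%) reached 1. The median was 0.536 CPM per kb for members with the KRAB motif, 2.06 for those without it and 2.28 for ZNF genes elsewhere. Of the 235 members, 8 had no count in any library. Together the members took 0.130% to 0.146% of the counts of a total RNA library and 0.0748% to 0.0923% of those of a polysomal library, ranges that did not overlap. Those of ZNF genes elsewhere, 0.393% to 0.431% and 0.264% to 0.308%, did not overlap either. Members with the motif took 0.0798% to 0.0918% in total and 0.0319% to 0.0490% in polysomal RNA. Those without it took 0.0498% to 0.0557% and 0.0367% to 0.0501%, so among members the ranges overlapped only without the motif. All these are shares of raw counts. The scaling of libraries behind the log2 ratios, which raises polysomal values relative to total ones, is not in them. In bulk samples fewer cells with an mRNA and less of it per cell cannot be told apart.

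The highest levels per library were those of ZNF146, a protein made of fingers with no KRAB domain, at 90.0 CPM as a mean over the 12 total RNA libraries. ZNF45 followed at 32.3, ZNF544 at 32.004, ZNF875 at 29.8 and ZNF787 at 28.8 CPM. Per length of transcript these 5 genes stood at 26.9, 8.22, 9.69, 10.7 and 14.8 CPM per kb, with ZNF146 again highest and the order of the rest changed. ZNF91 and ZNF93, KRAB proteins that repress SVA and LINE-1 retrotransposons, had 5 to 23 and 3 to 12 counts in the total RNA libraries, at means of 0.326 and 0.236 CPM, and did not pass the filter on low counts.

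Polysomal and total RNA of untreated siCTRL cells were compared first, as the baseline. Of the 235 members, 178 passed the filter and 57 did not. Of the 178, 119 were lower in polysomal than in total RNA and 13 were higher at an adjusted p under 0.05 (edgeR quasi-likelihood test, Benjamini-Hochberg over all genes tested). Over all 12431 genes, 32.3% were called lower and 31.4% higher. The median log2 ratio of the members was -1.02, with quartiles of -1.47 and -0.46, and that of all genes tested was -0.03. Low polysomal counts let 19 members pass the filter through total RNA alone, and 15 of these were among the 119. With at least 10 counts required in every library, 154 members remained, of which 103 were lower and 13 higher at a median of -0.98, against 33.1% lower and 32.3% higher over all genes. Without replicate 2, calls fell among members and among all genes alike, to 52 members lower and 6 higher of 174, against 12.2% lower and 17.3% higher of all genes, and the member median was -0.99.

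**Figure D1:**
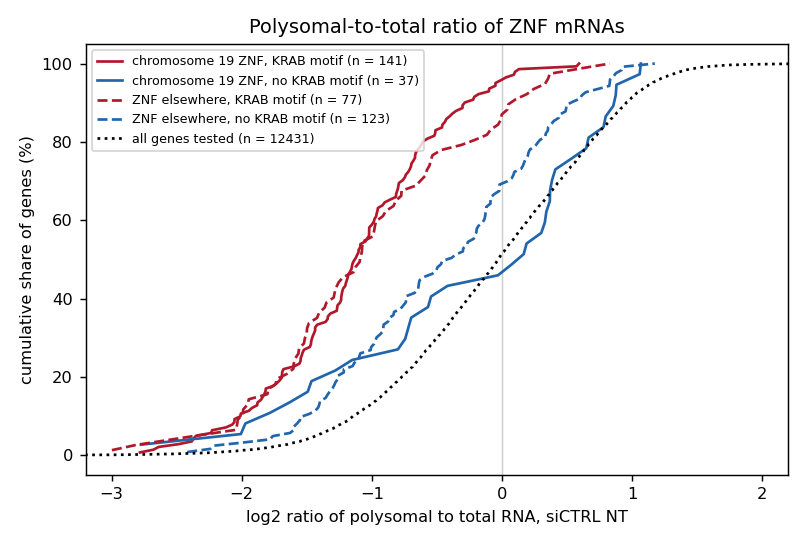
Cumulative share of genes (y axis, %) by log2 ratio of polysomal to total RNA in siCTRL NT cells (x axis), for ZNF genes on chromosome 19 (solid) and elsewhere (dashed), with (red) and without (blue) the KRAB motif, and for all genes tested (dotted). Both curves of genes with the motif lie far to the left of the dotted curve, with medians of -1.12 and -1.09, and the curve of chromosome 19 genes without it crosses the dotted curve, with a median of 0.17.

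ZNF567, a KRAB zinc finger gene at chr19:37178514-37218603, had the smallest p. Its total RNA stood at 6.30, 8.68 and 7.46 CPM in the 3 replicates and its polysomal RNA at 1.18, 1.56 and 1.63 CPM, so every total value was far above every polysomal one. The log2 ratio was -2.37 ± 0.20 (SE, adjusted p = 0.000202). ZNF587 followed at -1.84 ± 0.18 (adjusted p = 0.000264) and ZNF234 at -1.81 ± 0.19 (adjusted p = 0.000296). ZNF431, of the cluster next to the centromere, stood at -2.48 ± 0.29 (adjusted p = 0.000375) and ZNF606 at -2.06 ± 0.25 (adjusted p = 0.000433). ZNF562 and ZNF550 were the least lowered of the 8 members with the smallest p, at -1.24 ± 0.14 (adjusted p = 0.000342) and -1.42 ± 0.17 (adjusted p = 0.000395). For ZNF562, ZNF587 and ZNF224, genes on the other strand overlap 50.7%, 33.2% and 42.4% of the exon bases, and the strand setting of the authors' counting is not given in the sources used here. ZNF587 also shares 14.7% of its windows of 100 bases with ZNF417, a close copy, and reads of the shared stretches could be split between them.

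Members with a known function mostly sat on the low side. ZNF382, a KRAB repressor that is silenced in several cancers, stood at 4.55, 4.36 and 3.89 CPM in total RNA and 0.778, 1.04 and 1.42 CPM in polysomal RNA, a log2 ratio of -2.01 ± 0.24 (adjusted p = 0.000395). ZNF224, which represses the aldolase A gene, stood at 15.6, 9.72 and 9.55 CPM in total and 1.73, 2.28 and 3.49 CPM in polysomal RNA, a log2 ratio of -2.24 ± 0.30 (adjusted p = 0.000567). In both genes the fractions did not overlap. ZNF146 held 95.2, 93.5 and 90.9 CPM in total RNA but 9.94, 20.98 and 39.1 CPM in polysomal RNA, so the fractions stayed apart while the polysomal replicates spread widely. Its log2 ratio was -2.01 ± 0.40 (adjusted p = 0.00286), and without replicate 2 the adjusted p was 0.0609. ZNF331, an imprinted gene, stood at -1.24 ± 0.22 (adjusted p = 0.00155). ZNF420, a KRAB protein that restrains p53, stood at -1.27 ± 0.37 (adjusted p = 0.0152), and both its call without replicate 2 (adjusted p = 0.118) and that after a GC correction (0.117) were lost. ZNF274, which marks the 3′ ends of ZNF genes with repressive chromatin, had 18.9, 15.3 and 13.7 CPM in total and 16.5, 11.4 and 13.2 CPM in polysomal RNA. These values overlapped, at -0.22 ± 0.18 (adjusted p = 0.309), and only the GC correction gave a call, at -0.43 (adjusted p = 0.0384).

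The 13 members that were higher in polysomal RNA included 1 with the KRAB motif, ZNF324, which shares 33% of its windows of 100 bases with the overlapping gene ZNF446. ZNF787 had the smallest p, with 27.997, 29.9 and 25.1 CPM in total and 59.5, 65.7 and 47.9 CPM in polysomal RNA, a log2 ratio of 1.06 ± 0.15 (adjusted p = 0.000625). ZNF444, a SCAN-domain protein, held 21.1, 21.1 and 19.6 CPM in total and 33.4, 40.5 and 32.2 CPM in polysomal RNA, a log2 ratio of 0.78 ± 0.13 (adjusted p = 0.00123). ZNF574 rose from 13.8, 17.98 and 15.4 CPM to 30.05, 32.8 and 23.8 CPM, at 0.87 ± 0.16 (adjusted p = 0.00197). In all 3 genes every polysomal value exceeded every total value. ZNF446, ZNF628, ZNF784, ZNF581 and ZNF579 stood at 0.88, 0.80, 1.07, 0.66 and 0.53, with adjusted p from 0.00144 to 0.00599. Without replicate 2 the adjusted p of ZNF784 was 0.0586 and that of ZNF581 was 0.0615. Exons of other genes on the same strand cover 29.8%, 24.9% and 19.3% of the exon bases of ZNF446, ZNF581 and ZNF579, so their counts could include reads of neighbors. ZNF875 was the only one of the 5 most abundant members whose fractions overlapped, at 33.05, 26.2 and 27.8 CPM in total and 34.2, 30.5 and 28.7 CPM in polysomal RNA.

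**Figure D2:**
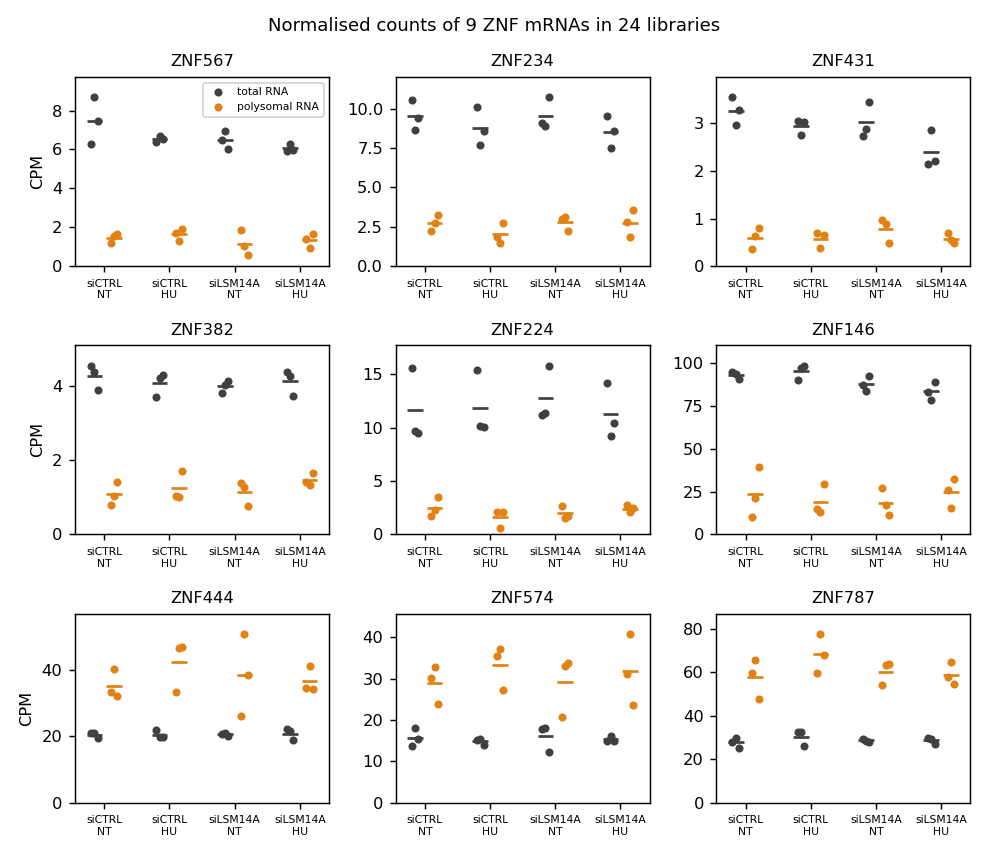
Normalised counts (CPM, y axes from 0) of 9 chromosome 19 ZNF mRNAs in the 24 libraries, by condition (x axes), with total RNA in grey and polysomal RNA in orange, 1 point per library and a bar at the mean of 3. In ZNF567, ZNF234, ZNF431, ZNF382, ZNF224 and ZNF146 every polysomal point lies below the total points of its condition, and in ZNF444, ZNF574 and ZNF787 every polysomal point lies above them.

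The calls among members divided by motif and by base composition. Of the 141 tested members with the motif, 133 lay below 50% GC, and these traits were not tested against each other. Of 141 tested members with the KRAB motif, 105 were lower and 1 was higher, at a median of -1.12. Of 37 without it, 14 were lower and 12 higher, at a median of 0.17. By the GC content of the exons, all 119 members called lower had a GC content of 33.2% to 48.2%, and all 13 called higher had 57.3% to 70.8%. Below 50% GC, 105 of 133 members with the motif and 14 of 15 without it were lower, at medians of -1.16 and -1.28, and none was higher. At 50% GC or above, 1 of 8 with the motif and 12 of 22 without it were higher, at medians of 0.02 and 0.40, and none was lower. Protein-coding genes outside both ZNF groups (members and ZNF genes elsewhere) were also split. Of these, 1435 of 2073 were lower below 40% GC, 1333 of 2537 from 40% to 45% and 650 of 1951 from 45% to 50%. Among members these counts were 41 of 46, 61 of 76 and 17 of 26. From 50% to 55% GC, 786 of 1798 such genes and 0 of 6 members were higher. From 55%, 2387 of 3694 such genes and 13 of 24 members were. Across the 178 members the Spearman correlation of the log2 ratio with exon GC content was 0.711, given as a description because genes share libraries and sequence families. It was 0.686 across all 12431 genes. The corresponding values across members were -0.392 for transcript length, -0.324 for 3′ UTR length, -0.337 for the number of fingers and 0.338 for the total RNA level per kb.

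At a like GC content the members still had lower values than genes outside both ZNF groups, and so did ZNF genes elsewhere. Below 40% GC the median log2 ratio was -1.47 over 46 members and -0.76 over 2073 protein-coding genes outside both groups. Suffixed and readthrough ZNF symbols remain among the latter. From 40% to 45% it was -1.13 over 76 members against -0.46 over 2537 genes, and from 45% to 50% it was -0.70 over 26 against -0.13 over 1951. From 50% to 55% it was -0.08 over 6 members against 0.27 over 1798, and from 55% it was 0.47 over 24 against 0.64 over 3694. In each of the 5 ranges the member median was the lower. ZNF genes elsewhere had medians of -1.44, -1.22, -0.83, -0.09 and 0.29 in these ranges. The lower values were thus not particular to chromosome 19. A correction that removes each library's trend of counts on GC content brought the member median to -0.55, with 81 members lower and 2 higher, against 23.4% lower and 30.4% higher over all genes. What gives rise to the trend was not tested, nor was the difference between members and other genes of like GC content.

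**Figure D3:**
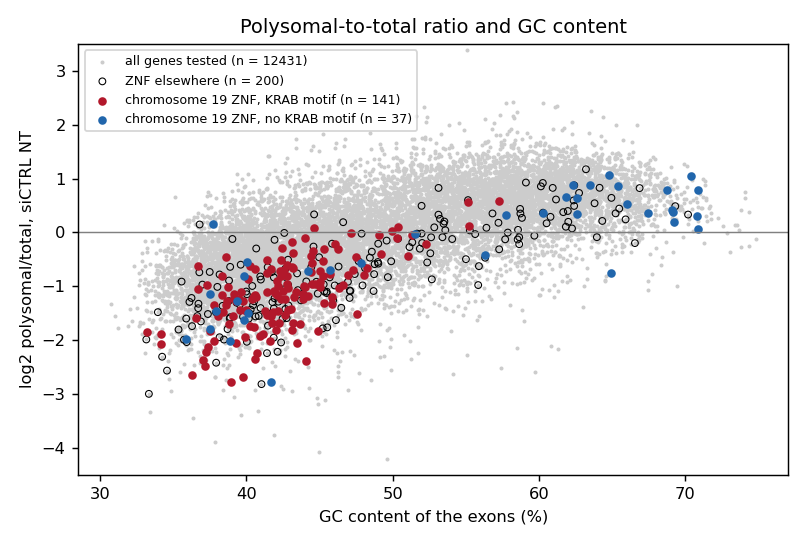
Log2 ratio of polysomal to total RNA in siCTRL NT cells (y axis) against the GC content of the exons (x axis, %), 1 point per gene, for chromosome 19 ZNF genes with (red) and without (blue) the KRAB motif, ZNF genes elsewhere (open circles) and all genes tested (grey). Members below 50% GC lie at a median of -1.16, at the lower side of the grey cloud, and members of 50% or above at a median of 0.37.

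ZNF genes elsewhere had medians close to those of the members with the motif and below 50% GC. Without the motif their median was lower over all GC contents, but higher below 50% GC. Of 200 tested, 115 were lower and 22 higher, at a median of -0.74. Those with the KRAB motif had a median of -1.09 over 77 genes, next to -1.12 for chromosome 19. Those without it had a median of -0.39 over 123 genes, with 60 lower and 19 higher, next to 0.17. Of genes without the motif, 68 elsewhere and 15 members lay below 50% GC, at medians of -0.99 and -1.28. At 50% or above lay 55 and 22, at 0.20 and 0.40. With and without the motif together, the medians below 50% GC were -1.14 elsewhere and -1.16 on chromosome 19. The extremes elsewhere were ZNF680 (chromosome 7) at -3.00 ± 0.23 and ZNF282 (chromosome 7) at 1.17 ± 0.13, with adjusted p of 0.000154 and 0.000331. ZNF621 and ZNF622 came next, at -2.04 ± 0.16 and 0.83 ± 0.12. The 1172 other protein-coding genes of chromosome 19 stood on the other side, since 435 of the 687 tested were higher and 25 lower, at a median of 0.62. The difference between these groups of genes was not tested. Of 12 further zinc finger genes of chromosome 19 with another symbol, such as those named ZSCAN, 6 were tested and 2 were lower.

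Many of these genes resemble or overlap each other, so reads can be split between them. Of the 178 tested members, 31 had at least 10% of their windows of 100 bases in another gene or 10% of their exon bases under another gene on the same strand. Of the other 147, 101 were lower and 7 higher, at a median of -1.02. Of 154 members with under 10% of their exon bases opposite another gene, 103 were lower and 8 higher, at -1.02.

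By position, the cluster next to the centromere stood lowest. This group of 36 genes, from ZNF101 to ZNF254 (chr19:19779605-24312770), had a median exon GC content of 37.02%. Only 15 of its genes were tested, 10 were lower and none higher, at a median of -1.78, and none of the 36 reached 1 CPM per kb in total RNA. The group of 25 genes from ZNF653 to ZNF791 (chr19:11594242-12750912) had a median of -1.53 over 12 tested genes. The group of 37 genes from ZNF175 to ZNF331 (chr19:52074536-54083523) had 26 lower of 30 tested and none higher, at -1.38. It held both members with the lowest ratios of all, ZNF525 at -2.78 ± 0.51 and ZNF83 at -2.77 ± 0.38, which were picked out after their values were seen. The group of 24 genes from ZNF565 to ZNF573 had 19 lower of 21 tested at -1.27, and that of 23 genes from ZNF575 to ZNF296 had 16 lower of 21 and 1 higher at -1.02. The group at the end of the long arm, 56 genes from ZNF628 to ZNF446 (chr19:55987984-58992597), had a median GC content of 45.9% and was mixed, with 20 lower and 9 higher of 50 tested and a median of -0.37.

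**Figure D4:**
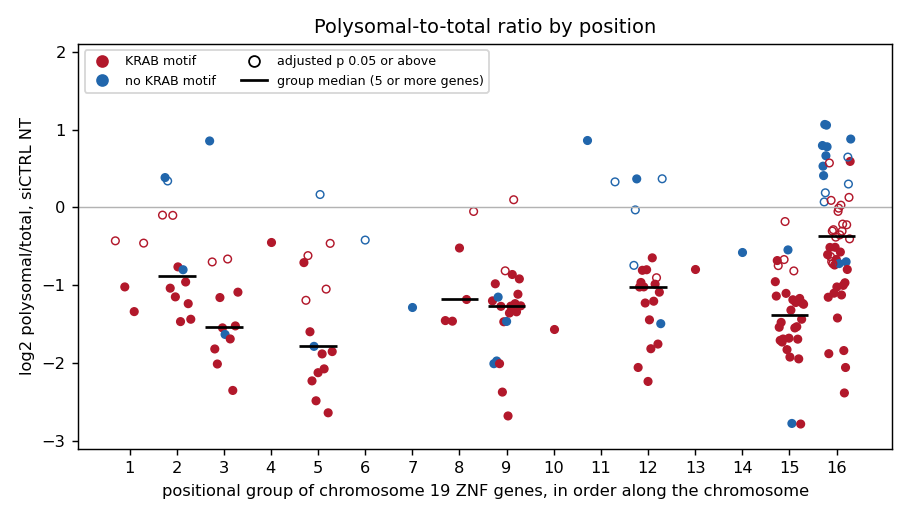
Log2 ratio of polysomal to total RNA in siCTRL NT cells (y axis) of the 178 tested members in 16 positional groups in their order along chromosome 19 (x axis), in red with and in blue without the KRAB motif. Filled points passed an adjusted p of 0.05, open points did not, and bars are medians of groups with 5 or more tested genes, from -1.78 in group 5 to -0.37 in group 16.

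The same split was present in the other conditions, which share no library with the baseline. In siCTRL HU cells 127 of 178 tested members were lower and 19 higher, at a median of -1.08, against 37.4% lower and 36.2% higher over all genes. In siLSM14A NT cells 122 of 180 were lower and 15 higher at -0.996, against 32.3% and 32.1%. In siLSM14A HU cells 115 of 175 were lower and 17 higher at -0.85, against 34.1% and 32.8%. Members that passed the filter through total RNA alone made up 17, 11 and 10 of these lower calls. With at least 10 counts in every library, 113 of 156, 115 of 161 and 106 of 158 members were lower. The medians were then -1.06, -0.97 and -0.83, and 19, 14 and 17 members were higher. The shares of all genes under this requirement are not given beside these counts, so no excess can be read from them. The next counts, over all 4 conditions, are without that requirement. Of 174 members tested in all 4 conditions, 96 (55.2%) were lower in all 4 and 13 (7.47%) were higher in all 4. Of 12277 genes tested in all 4, 27.3% were lower and 28.01% higher in all 4. No member and 1 gene in all was called in opposite directions. ZNF567 stood at -1.98 ± 0.19, -2.47 ± 0.34 and -2.18 ± 0.21 in siCTRL HU, siLSM14A NT and siLSM14A HU cells, and ZNF787 at 1.19 ± 0.13, 1.10 ± 0.12 and 1.04 ± 0.10. ZNF224 stood at -2.87 ± 0.35, -2.66 ± 0.24 and -2.22 ± 0.20. Of 30 tested members of 50% GC or above, 1 was lower in siCTRL HU cells, 1 in siLSM14A HU cells and none in siLSM14A NT cells. The GC correction left 76 members lower in each of these 3 conditions, at medians of -0.50, -0.46 and -0.42, against 24.7%, 23.6% and 26.3% of all genes lower.

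Of 16 cofactors of KRAB proteins tested, 6 were higher and 6 lower in polysomal RNA of siCTRL NT cells, at a median of -0.11, next to 31.4% higher and 32.3% lower over all genes. TRIM28, the corepressor that KRAB domains bind, stood at 1.41 ± 0.14 (adjusted p = 0.000293), and CHD4, the NuRD helicase, at 1.29 ± 0.13 (adjusted p = 0.000267). DNMT1, SETDB1, HDAC1 and MORC2, enzymes of DNA methylation, histone methylation, histone deacetylation and heterochromatin compaction, were also higher, at 1.121, 0.87, 0.76 and 0.72. TASOR and MPHOSPH8 of the HUSH complex, ATF7IP, the partner of SETDB1, and the HP1 genes CBX1, CBX3 and CBX5 were lower, at -1.14, -1.13, -0.74, -0.58, -0.88 and -0.61. UHRF1 was not analysed here.

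The siRNA and HU were then compared within each fraction. LSM14A, itself a gene of chromosome 19, checks the labels. Its total RNA stood at 80.8 to 91.0 CPM in the 6 siCTRL libraries and 6.14 to 8.31 CPM in the 6 siLSM14A libraries, and its polysomal RNA at 29.3 to 54.4 and 1.74 to 2.72 CPM. Of 10 melanocyte genes, 9 had a median of at least 1 CPM in total RNA, among them SOX10 at 605 CPM, and MIA was at 0.321 CPM. Of 13 genes of keratinocytes, epithelium, fibroblasts, endothelium and leukocytes, 9 were below 1 CPM, KRT1 and KRT5 had no count, and LUM was highest at 36.4 CPM. The 4 comparisons of each kind share groups of libraries, so their values are given side by side and not as independent results.

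In total RNA, depletion of LSM14A gave a call in 1 member, no larger a share than over all genes, and the call was not stable. In untreated cells 0 of 183 tested members passed, with 0 called by DESeq2, against 0.566% of all 12544 genes called. An unadjusted p under 0.05 was held by 4 members, a count without the share of all genes at that cut. The member median was -0.01 on the log2 scale, with quartiles of -0.12 and 0.08. The smallest p in the 2 directions belonged to ZNF616, ZNF792 at -0.36 ± 0.13 and ZNF699 at 0.91 ± 0.39 (adjusted p = 0.328 and 0.425 for the last 2). In HU-treated cells 1 of 182 was called, against 0.802% of all genes, and the median was -0.08 with quartiles of -0.18 and 0.03. This member was ZNF616, a KRAB zinc finger gene at chr19:52616344-52643191, with 4.89, 4.997 and 5.65 CPM in the siCTRL HU libraries and 3.05, 3.38 and 3.54 CPM in the siLSM14A HU libraries. The groups did not overlap, and the change was -0.65 ± 0.13 (adjusted p = 0.0405). The call was lost on leaving out replicate 2 or 3 of siCTRL HU or any replicate of siLSM14A HU, with adjusted p of 0.0907 to 0.181, and in a fit of all 24 libraries. In untreated cells the values of ZNF616 were 5.01, 7.08 and 6.45 against 4.56, 4.73 and 2.84 CPM, at -0.63 ± 0.20 (adjusted p = 0.278).

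The replicate number was then used as a block, since same-numbered libraries deviated together in this comparison. With it, 5 of 182 members were called, all lower in HU-treated siLSM14A cells. This was a smaller share than the 6.85% of all genes called (855 of 12475). The 5 members were ZNF616 (adjusted p = 0.000148), ZNF146 (0.00192), ZNF850 (0.0156), ZNF546 (0.0379) and ZNF791 (0.0388), picked out after their values were seen. ZNF146 stood at 90.1, 97.2 and 98.6 CPM in siCTRL HU and 83.2, 78.6 and 89.2 CPM in siLSM14A HU cells, a small change of -0.20 ± 0.04. ZNF850 stood at 4.79, 4.63 and 5.42 against 3.32, 3.25 and 4.42 CPM. The groups did not overlap in either gene. ZNF576 and ZNF331, the highest-ranked in the other direction without the block, stood at 0.20 ± 0.10 and 0.16 ± 0.08 (adjusted p = 0.615 and 0.652).

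HU gave no call among members in total RNA. In siCTRL cells 0 of 182 members and 0% of all genes were called, at a member median of -0.06. An unadjusted p under 0.05 was held by 6 members, again without the share of all genes at that cut. With the replicate number as a block, since same-numbered libraries deviated together here too, 0 members and 0.12% of all genes (15 of 12506) were called. In siLSM14A cells 0 of 182 members and 0% of all genes were called, at a member median of -0.11. Here 21 members and 650 of all 12497 genes had an unadjusted p under 0.05. Only for this comparison is the count over all genes at that cut given, so it cannot be set beside the others. Of the 21 members, 19 hold the KRAB motif, as do 145 of the 182 tested. Below 0 lay 114 of 182 members and 6246 of 12506 genes in siCTRL cells, and 136 of 182 members and 6180 of 12497 genes in siLSM14A cells. In siLSM14A cells the change had a Spearman correlation with GC content of 0.562 across all genes and 0.415 across members. The smallest p in siLSM14A cells were those of ZNF791 at -0.36 ± 0.09 and ZNF776 at -0.38 ± 0.11 (adjusted p = 0.855 for both). In siCTRL cells ZNF324 and ZNF791 stood at -0.25 ± 0.09 and -0.21 ± 0.08 (adjusted p of 1.00 each). DESeq2 called no member in either comparison.

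In polysomal RNA no member was called in any comparison, and DESeq2 called none. Depletion of LSM14A gave a member median of -0.05 over 169 members in untreated cells and 0.11 over 166 in HU-treated cells, against 0.0162% and 0.0653% of all genes called. HU gave a median of -0.14 over 166 members in siCTRL and 0.02 over 168 in siLSM14A cells, against 0% and 0% of all genes. With the replicate block, which same-numbered libraries called for in siCTRL cells, 0 members and 0.00812% of all genes (1 gene) were called there. The numbers of members at an unadjusted p under 0.05 were 3, 4, 7 and 3, without the share of all genes at that cut, so they show no excess by themselves. For depletion of LSM14A in HU-treated cells the median was 0.16 for members with the KRAB motif and -0.12 for those without it. That difference was not tested. The change had a Spearman correlation with GC content of -0.630 across all genes and -0.462 across members. ZNF443, a KRAB gene of the group from ZNF653 to ZNF791, had the smallest p of the siRNA comparison in untreated cells, at 1.79 ± 0.51 (adjusted p of 1.00), and shares 18.1% of its windows with ZNF799. ZNF792 and ZNF599, with the smallest p among those lower, stood at -0.61 ± 0.23 and -0.55 ± 0.24. ZNF181 and ZNF83 stood at 0.80 ± 0.33 and 1.02 ± 0.43 in HU-treated cells (adjusted p = 0.739). In the response to HU, ZNF846 and ZNF580 stood at 1.499 ± 0.48 and 0.58 ± 0.20 in siCTRL cells (adjusted p = 0.933 for both), and ZNF443 at -1.14 ± 0.44 in siLSM14A cells (adjusted p of 1.00).

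Translation efficiency (TE), the ratio of polysomal to total RNA compared between conditions, likewise gave no call among the members or among all genes. Of 183 members in untreated cells, depletion of LSM14A called 0, against 0% of all genes, at a median of -0.01. In HU-treated cells it called 0 of 183, against 0% of all genes, at a median of 0.19 with quartiles of -0.08 and 0.45, and 128 of the 183 lay above 0, against 6450 of 12649 over all genes. HU called 0 of 184 in siCTRL cells, against 0% of all genes, at -0.06, and 0 of 183 in siLSM14A cells, against 0%, at 0.11. The difference between these responses, tested as an interaction over all 24 libraries, called 0 of 184, against 0% of all genes, at 0.24. The members at an unadjusted p under 0.05 numbered 2, 11, 3, 8 and 4 in these 5 comparisons, and DESeq2 called none in any. The share of all genes at that cut is not given beside these counts, so no excess can be read from them.

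The TE medians had different signs with and without the motif, a difference that was not tested. In HU-treated cells, depletion of LSM14A had a TE median of 0.25 over 146 members with the KRAB motif and -0.09 over 37 without it, and ZNF genes elsewhere had 0.12 over 204. In the interaction the medians were 0.28, -0.15 and 0.14. Across all genes the log2 TE change in HU-treated cells had a Spearman correlation of -0.650 with GC content, and across members of -0.423. After the GC correction the member medians were 0.05 in HU-treated cells and 0.08 in the interaction.

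Single members with the smallest p had few polysomal counts. ZNF347, a KRAB gene, held 1, 5 and 4 polysomal counts in siCTRL HU and 10, 9 and 6 in siLSM14A HU cells, with 21, 20 and 34 and 10, 15 and 20 total RNA counts, a TE change of 1.91 ± 0.63 (adjusted p = 0.778). ZNF546 held 11, 5 and 7 against 19, 6 and 21 polysomal counts, at 1.66 ± 0.56 (adjusted p = 0.778). Its polysomal values overlapped between the groups. In untreated cells ZNF443 stood at 1.49 ± 0.58 (adjusted p of 1.00). In the response to HU, ZNF296 stood at 0.79 ± 0.29 in siCTRL cells (adjusted p = 0.956). ZNF699 and ZNF675, with the smallest p in untreated cells and in the response of siLSM14A cells, held 0 to 6 counts in every polysomal library, and no fold is given for them. In the interaction, ZNF490 stood at 1.42 ± 0.57 and ZNF524, a GC-rich gene without the motif, at -0.64 ± 0.31 (adjusted p = 0.896 for both).

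The replicates themselves differed in the strength of the trend on GC content, and in siCTRL NT and siLSM14A HU cells the replicates with the weaker trend had the higher member medians. In siCTRL NT cells the median log2 ratio of 184 members was -1.25, -1.03 and -0.62 in replicates 1, 2 and 3, with slopes over all genes of 0.760, 0.634 and 0.341 per 10 percentage points of GC. In siCTRL HU cells the medians were -0.97, -1.13 and -0.89 at slopes of 0.633, 0.845 and 0.690. In siLSM14A NT cells they were -0.91, -1.01 and -0.98 at slopes of 0.342, 0.737 and 0.754, and in siLSM14A HU cells -0.67, -0.95 and -0.67 at slopes of 0.466, 0.706 and 0.436. The range within siCTRL NT alone, from -1.25 to -0.62, was wider than the difference between any pair of condition means, which lay between -0.99 and -0.76. The part of the slope in the TE medians was not tested beyond the GC correction.

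**Figure D5:**
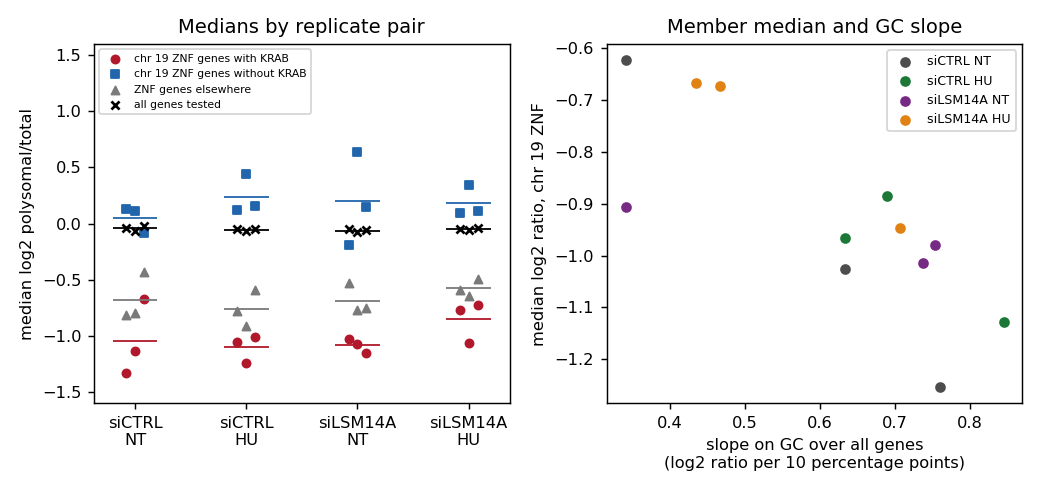
Left, median log2 ratio of polysomal to total RNA (y axis) in each of the 12 same-numbered library pairs by condition (x axis), for members with (red) and without (blue) the KRAB motif, ZNF genes elsewhere (grey) and all genes tested (black), with lines at the mean of 3. Right, member median against the slope of the log2 ratio on GC content over all genes in the same pair, colored by condition. Replicate 3 of siCTRL NT has the highest median, -0.62, and the lowest slope, 0.341.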

How the data were processed

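The authors sequenced polyA RNA of total lysate and of pooled heavy gradient fractions in 24 stranded paired-end libraries (100 bases), mapped the reads with STAR 2.6.1a to hg19 and deposited raw counts per gene of Gencode 34. The strand setting of the counting was not given in the sources used here. Groups came from the sample labels. Of 20345 genes listed, 708 were not in the annotation used here (GENCODE 44 lifted to GRCh37, the same build) and 551 were of another type, which left 19086 protein-coding genes. The members follow a rule on symbol and position, but they and the gene lists were chosen with earlier results of these data known, and 9 suffixed or readthrough symbols were left out. The KRAB motif, C2H2 fingers, exon GC content and the printed finger units were read from the GENCODE canonical transcripts, since no RefSeq protein table was at hand. Only the 6 printed units were checked against GRCh37, and all 6 were equal to it.

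The deposited counts were tested with edgeR 4.0.16 (R 4.3.3, quasi-likelihood F test, TMM scaling, filterByExpr with a minimum of 10 counts and 15 in all), separately for each comparison on the libraries of its groups, and p-values were adjusted by Benjamini-Hochberg over all protein-coding genes tested, with a threshold of 0.05. There were 17 comparisons, 13 of them between conditions. TE changes were interactions of fraction and condition. All 24 libraries entered the fit in which the HU response was compared between siRNAs. CPM were TMM-scaled. Replicate ratios used log2(CPM + 0.1) of same-numbered total and polysomal libraries, which the labels do not tie to 1 culture. Alternatives were DESeq2 1.42.0, DESeq2-type size factors, no filter or 10 counts in every library, 1 fit of all libraries, a replicate block, a GC correction (loess of span 0.3, limma 3.58.1), leaving out each replicate, all genes of the table, wider symbols and, added after seeing the data, the culture as a block for TE. Summaries used Python 3.11.15 (pandas 2.3.3, scipy 1.17.1), and the fits were tested on simulated data.

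Replicate numbers were taken to pair samples where the deviations of same-numbered libraries correlated at over 0.1 in all 3 pairs. This held for the siRNA comparison in total RNA of HU-treated cells (0.331, 0.177 and 0.245), for HU against NT in siCTRL cells, both in total (0.268, 0.247, 0.185) and in polysomal samples (0.248, 0.183, 0.453), and for polysomal against total RNA in siLSM14A HU cells (0.168, 0.153 and 0.238). No replicate libraries were duplicates, as their counts differed by a chi-square per gene of 6.20 or more. Named were the 5 members with the highest total RNA level, the 8 with the smallest p among those called in each direction at baseline (2 for ZNF genes elsewhere), up to 2 with the smallest p in each direction of every other comparison (1 for the interaction), 8 members with a known role, LSM14A and the KRAB cofactors. Exceptions are named as such in the text. Libraries held 24789280 to 44897501 counts, and 160 to 184 members had 10 or more in a library, so precision was lowest for the rarest members.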

Additional observations from a re-analysis of the deposited data

How the results depend on the processing

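Most values kept their direction and their side of the threshold. Among counts of members and their medians, 544 of the values computed under the alternatives stayed within the set limits (1.5 times, or 1 SD of the replicates) and 48 did not, and among named genes 1538 kept their call, 7 gained it, 23 lost it and 2 changed sign. The GC correction moved most of the former. With it, polysomal against total RNA had 2 members higher and a median of -0.5516 in siCTRL NT, 76 lower, 4 higher and -0.5014 in siCTRL HU, 76 lower, 3 higher and -0.464 in siLSM14A NT, and 76 lower, 5 higher and -0.4247 in siLSM14A HU. With the replicate block and the GC correction together these were 2 and -0.5482, then 79, 4 and -0.5, then 68, 3 and -0.4664, and then 76, 5 and -0.4203. No share of all genes is given for this setting, nor for the higher calls with the GC correction alone outside siCTRL NT. ZNF579 changed sign, to -0.0952 with the correction and -0.1008 with the block added. For the siRNA in HU-treated cells the member median became -0.0485 in total RNA (-0.0496 with the block), -0.0075 in polysomal RNA (-0.0074) and 0.0484 for TE (0.0432), and for HU against NT in siLSM14A total RNA it became -0.0687 (-0.0706). The correction removes any dependence of the counts on GC content, whatever its cause, which was not tested.

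The members called in total RNA for the siRNA in HU-treated cells numbered 0 in 1 fit of all 24 libraries and 5 with the replicate block. With the block, 6.85% of all genes were called. With the block and the GC correction 3 members were called, without the share of all genes beside this count. The block changed no other count of members by over 1.5 times. At baseline the block gave 126 lower and 13 higher, without the share of all genes beside these counts. Same-numbered libraries there correlated at 0.126, 0.159 and 0.058, short of the limit of 0.1 in all 3 pairs, so pairing was neither taken nor excluded. Without 1 replicate, the baseline comparison gave 52 to 118 members lower and 6 to 11 higher, next to 1512 to 4319 genes lower and 2142 to 4135 higher over all genes, with the fewest without replicate 2 in each case. In siLSM14A NT cells 5 (without replicate 3) to 18 (without replicate 1) were higher, next to 2630 and 4016 of all genes, and the median ranged from -1.0247 to -0.9397. The siRNA medians in total RNA ranged from -0.0157 to 0.0107 in untreated and from -0.0863 to -0.0402 in HU-treated cells, with 0 to 1 members called in the latter, and the HU median in siLSM14A cells from -0.1208 to -0.1015. The cause of these shifts was not tested. The median of all genes moved by at most 0.0802, in siCTRL HU with the GC correction. With 3 replicates, and under 10 counts in some library for many members, precision was lowest for the rarest of them, and which size of TE change could be resolved was not tested.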
